A study of Mus musculus with 96 samples.

Results

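Chromosome 8 was described in single nuclei of KPC1199EGFP, a mouse pancreatic cancer cell line. All bins of chromosome 8 in the deposited table were used, which gave 251 of 4906 bins (5.12%) with a median length of 482 kb. The chromosome was read in 3 parts, in coordinates of the mouse build mm9 counted from 1. The proximal part ran from base 1 to 43640395 (76 bins, 43.6 Mb), the middle part from 43640396 to 91050078 (90 bins, 47.4 Mb), and the distal part from 91050079 to 131738871 (85 bins, 40.7 Mb). The borders were chosen with earlier results of these data known, so the presence of a step at each border is a description and not an independent finding.

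The line has a C57BL\6 background and carries EGFP, a green fluorescent protein. It was grown attached to plastic without treatment and sampled at passage 9. Nuclei were stained with DAPI, a DNA dye, and sorted by DNA content into gates labelled 2N+ (35 nuclei), 4N (12 nuclei) and 2N (47 nuclei), and single-nucleus genomes were amplified and sequenced. The 2N+ and 2N gates also had 1 bulk library each, and the 4N gate had none. All libraries came from 1 line, and nothing in the labels names separate cultures, so a gate is 1 sample, nuclei are not replicates of it, and no p-value is given. The intervals given with shares are exact Clopper-Pearson 95% intervals and cover counting error only.

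Mouse chromosomes are telocentric: the centromere lies at the start of the numbering, so the proximal part is next to the centromere and the distal part reaches the telomere of the single long arm. A break inside the arm that removes one side leaves part of the arm at a lower copy number, and the position of the break is inherited by the daughters of that cell. A break point shared to the same bin by many nuclei is therefore commonly used to group cells of a tumour, together with gains and losses of whole chromosomes. The deposited values are ratios to the general level of each nucleus, in runs of equal values. They were turned into copies by the multiplier that brought the autosomes of that nucleus nearest to whole numbers.

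The proximal part set the 2N+ and 2N gates apart, while the medians of the other parts were alike in these gates. In 2N+ nuclei the proximal part had a lowest, median and highest level of 1.20, 2.98 and 3.16 copies. The corresponding values were 2.00, 3.03 and 5.93 copies in 4N nuclei and 1.99, 2.06 and 3.08 copies in 2N nuclei. The ranges of all gates overlapped, while the 2N median lay about a whole copy under the 2N+ and 4N medians. The 4N median depends on the nuclei with high multipliers: with the multiplier limited to 2 to 3 it was 2.37 copies. The proximal part rounded to 2 copies or fewer in 5 of the 35 2N+ nuclei (14.3%, interval 4.81 to 30.3), in 4 of the 12 4N nuclei (33.3%, 9.92 to 65.1) and in 36 of the 47 2N nuclei (76.6%, 62 to 87.7). With the limited multiplier the 4N share was 58.3%, and the 2N+ and 2N shares were as before.

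The middle part was near 3 copies in every gate. Its lowest, median and highest levels were 1.20, 2.98 and 3.89 copies in 2N+ nuclei, 2.75, 3.03 and 5.93 in 4N nuclei, and 1.99, 2.97 and 3.87 in 2N nuclei. It rounded to 3 copies in 32 of the 35 2N+ nuclei, 8 of the 12 4N nuclei and 41 of the 47 2N nuclei. The distal part had 1.43, 2.98 and 3.68 copies in 2N+ nuclei, 2.09, 2.90 and 6.07 in 4N nuclei, and 1.99, 2.97 and 3.85 in 2N nuclei. Its 2N+ and 2N medians were alike, and it rounded to 2 copies or fewer in 7 of the 35 2N+ nuclei (20%, 8.44 to 36.9) and in 11 of the 47 2N nuclei (23.4%, 12.3 to 38). The 4 nuclei with a multiplier above 3 were all 4N nuclei, and they held every level of a part above 4 copies.

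**Figure D1:**
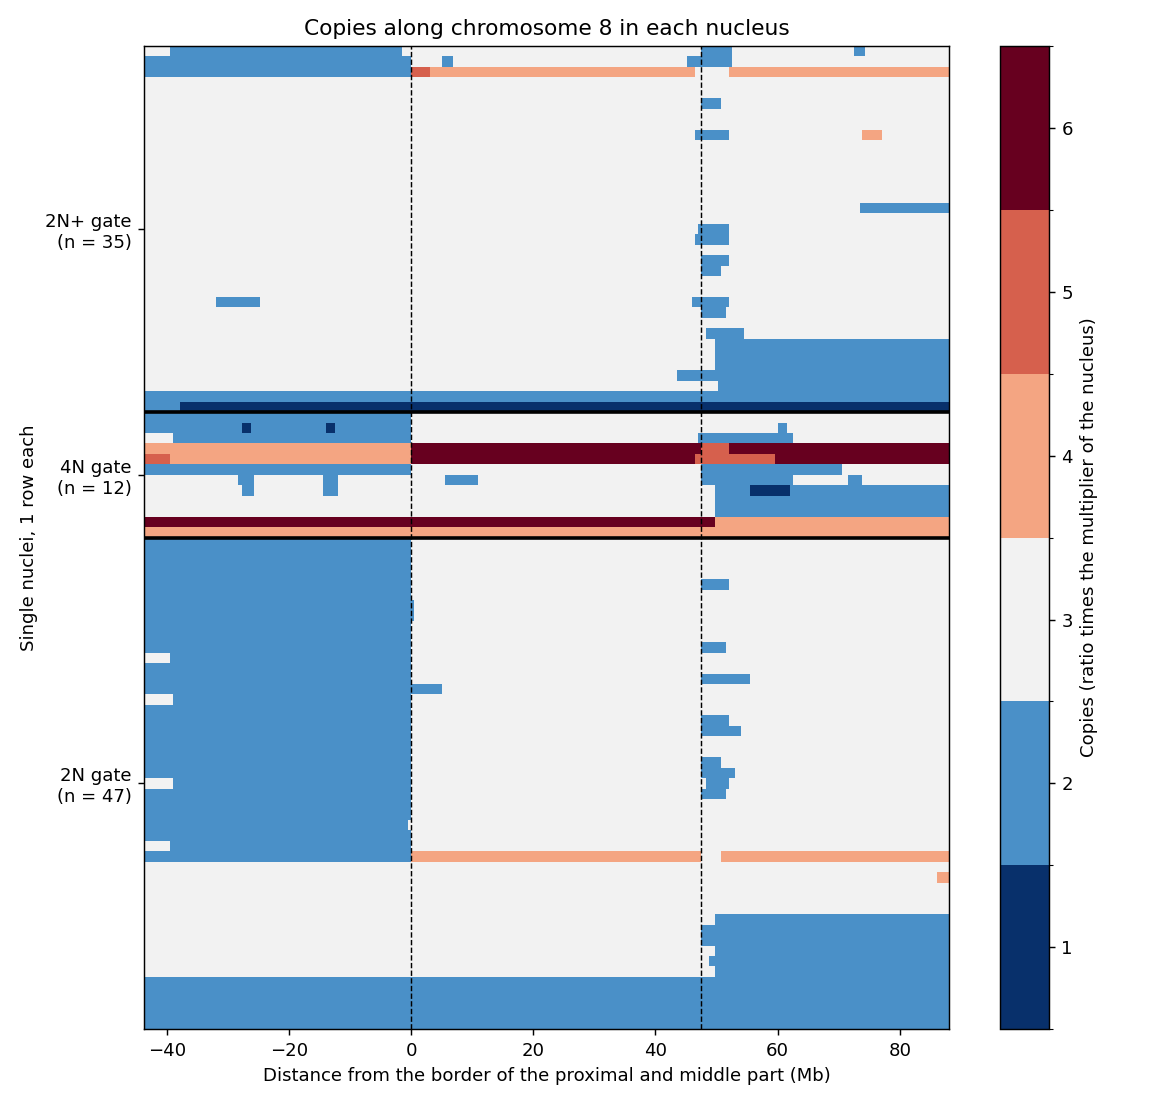
Copies along chromosome 8 in 94 single nuclei (1 row each), in the order 2N+ gate, 4N gate and 2N gate, sorted within a gate by the rounded copies of the parts. The horizontal axis is the distance in Mb from the border of the proximal and middle part, dashed lines mark both inner borders, and colours give copies rounded to 1 to 6. The proximal part at 2 copies beside a middle at 3 fills 30 rows of the 2N gate, and the distal part at 2 copies begins at nearly the same place in all gates.

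Compared bin by bin, the difference between the 2N+ and 2N gates on chromosome 8 was limited to the proximal part. The mean over nuclei was higher in 2N+ than in 2N nuclei by 0.5 copies or more in 76 of 251 bins of chromosome 8, and all 76 were the bins of the proximal part. Of the 4903 bins of chromosomes 1 to X, 21.6% passed the same limit, and 0% were lower by as much. In the proximal part the difference, 2N+ minus 2N, ran from 0.522 to 0.576 copies with a median of 0.551. In the middle part the median difference was 0.0276 copies and in the distal part -0.0114 copies, beside a median of 0.0673 over all bins. For 4N minus 2N the means were higher by 0.5 copies or more in 225 bins of chromosome 8, where 91% of all bins passed. With the multiplier limited to 2 to 3, an alternative chosen after the data were seen, 0 bins passed, so that count rests on the 4N nuclei with high multipliers.

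**Figure D2:**
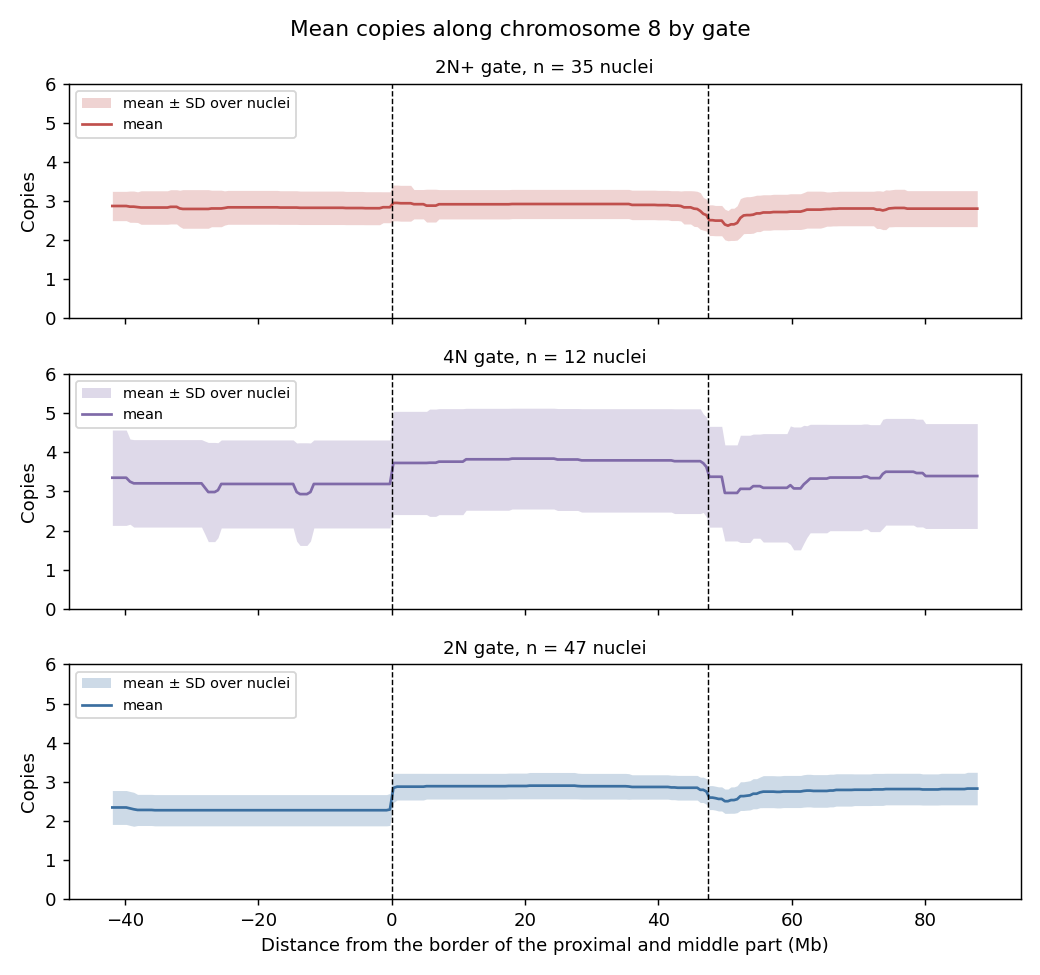
Mean copies (line) and SD over nuclei (band) per bin along chromosome 8, with the 2N+ gate on top, the 4N gate below it and the 2N gate at the bottom. The horizontal axis is the distance in Mb from the border of the proximal and middle part. The proximal bins lie higher by 0.522 to 0.576 copies in the 2N+ than in the 2N gate, and a low stretch follows the second dashed line in every gate.

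Within a nucleus, a step between neighbouring parts needs only the scale of that nucleus. The proximal part was below the middle part by 0.5 copies or more in 3 of the 35 2N+ nuclei (8.57%, 1.80 to 23.1), 7 of the 12 4N nuclei (58.3%, 27.7 to 84.8) and 31 of the 47 2N nuclei (66%, 50.7 to 79.1). The interval of the 2N+ gate did not overlap that of the 2N gate. It also lay below that of the 4N gate, but not so with a step of 0.7 copies, where the 4N share was 41.7% (15.2 to 72.3), without nuclei of high residual (44.4%, 13.7 to 78.8) or without multipliers above 3 (50%, 15.7 to 84.3). It was above the middle by as much in 0 of 94 nuclei. Without the nuclei with more than 60 break points in the genome, the 2N+ share was 3.13%, since 2 of its 3 nuclei were of that kind, with 91 and 87 break points against a gate median of 20. The distal part was below the middle in 5 of the 35 2N+ nuclei (14.3%, 4.81 to 30.3), 5 of the 12 4N nuclei (41.7%, 15.2 to 72.3) and 6 of the 47 2N nuclei (12.8%, 4.83 to 25.7). These intervals overlapped, and the distal part too was above the middle in 0 nuclei.

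The depth of both losses was close to that of 1 copy of 3. In the nuclei with a proximal step, the ratio of proximal to middle needs no multiplier, and it had a lowest, median and highest value of 0.520, 0.646 and 0.693 in 2N+ nuclei. It was 0.687, 0.706 and 0.829 in 4N nuclei and 0.528, 0.688 and 0.803 in 2N nuclei, where 2 copies against 3 would give 0.667. In the nuclei with a distal step, the ratio of distal to middle was 0.679, 0.705 and 0.746 in 2N+ nuclei, 0.692, 0.717 and 0.840 in 4N nuclei, and 0.683, 0.703 and 0.771 in 2N nuclei. Over all gates the medians were 0.689 for the proximal loss and 0.705 for the distal loss, both slightly above the ratio of 2 to 3. The proximal ratios near 0.5 came from 2N+ nucleus 25, with 2.02, 3.89 and 3.68 copies of the proximal, middle and distal part, and 2N nucleus 31, with 2.04, 3.87 and 3.85. In these nuclei the middle and distal parts were near 4 copies and the proximal part near 2.

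The losses rarely stood in the same nucleus. Among nuclei with the proximal part below the middle, the distal part was also below it in 0 of the 3 2N+ nuclei, 1 of the 7 4N nuclei and 0 of the 31 2N nuclei (0%, 0 to 11.2). Among nuclei without a proximal step, it was below in 5 of the 32 2N+ nuclei (15.6%, 5.28 to 32.8), 4 of the 5 4N nuclei (80%, 28.4 to 99.5) and 6 of the 16 2N nuclei (37.5%, 15.2 to 64.6). In the 2N gate these intervals did not overlap, and in the 2N+ and 4N gates they did. Over all gates the counts were 1 of 41 nuclei (2.44%, 0.0617 to 12.9) with a proximal step and 15 of 53 nuclei (28.3%, 16.8 to 42.3) without. The exception was 4N nucleus 2, with 3.5, 4.23 and 3.55 copies. Its autosomes were the farthest from whole numbers of all nuclei, with a residual (root mean squared distance) of 0.206 copies, so its copy numbers are uncertain. In 4N nucleus 1, with 2.20, 2.75 and 2.48 copies, the parts also rounded to 2, 3 and 2, but the distal part was less than 0.5 copies below the middle, and its residual was 0.197 copies.

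**Figure D3:**
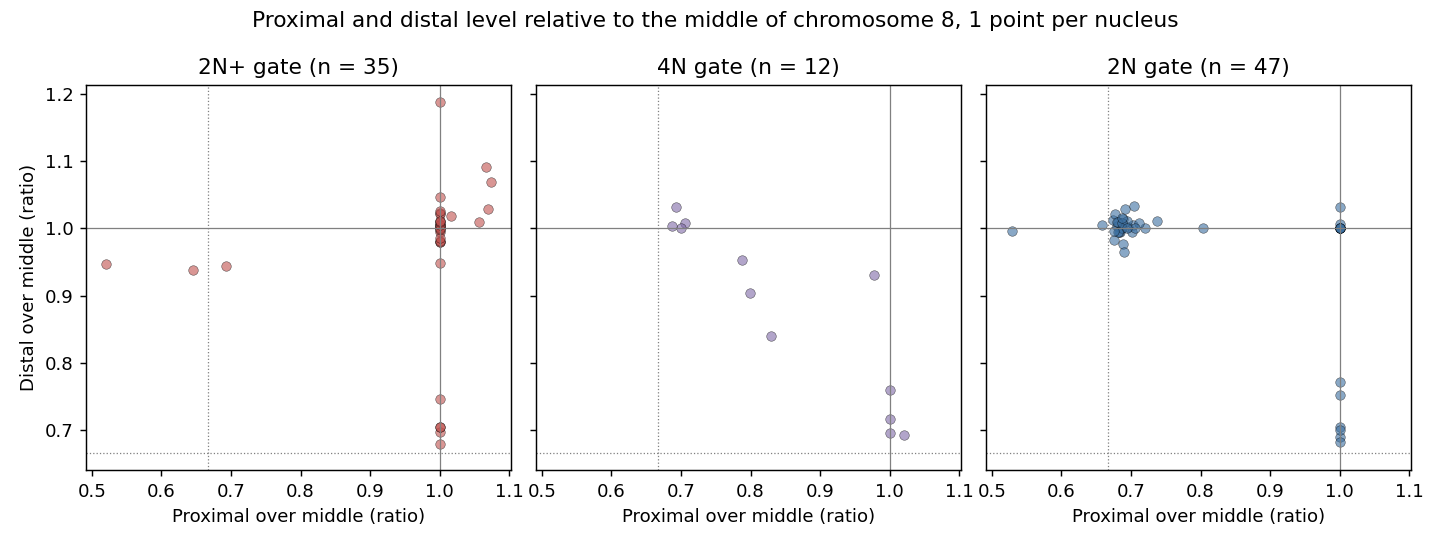
Ratio of the proximal to the middle part (horizontal) against the ratio of the distal to the middle part (vertical), 1 point per nucleus, with the 2N+ gate left, the 4N gate in the middle and the 2N gate right. Solid lines mark a ratio of 1 and dotted lines the 0.667 expected for 2 copies against 3. Most points lie along both arms of an angle, and the corner where both ratios are near 0.667 is empty.

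Rounded to whole copies, the parts took 10 combinations, of which 4 occurred in 3 or more nuclei. The combination of 2 proximal, 3 middle and 3 distal copies was found in 35 nuclei, of which 2 were 2N+, 3 were 4N and 30 were 2N nuclei. It made up 5.71% (0.7 to 19.2) of 2N+ nuclei, 25% (5.49 to 57.2) of 4N nuclei and 63.8% (48.5 to 77.3) of 2N nuclei. All parts rounded to 3 copies in 31 nuclei. Of these, 25 were 2N+ (71.4%, 53.7 to 85.4), 1 was 4N (8.33%, 0.211 to 38.5) and 5 were 2N (10.6%, 3.55 to 23.1). This is read from the median of each part, and 26 of the 31 had a low stretch near the start of the distal part, described below. The form with all parts at 3 copies was thus the most frequent one in the 2N+ gate and the proximal loss the most frequent one in the 2N gate.

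The combination of 3 proximal, 3 middle and 2 distal copies was shared more evenly, with 5 2N+, 3 4N and 6 2N nuclei. All parts rounded to 2 copies in 1 2N+, 0 4N and 5 2N nuclei. The remaining nuclei carried forms of 1 or 2 nuclei each. In the 4N gate, nuclei 4 and 5 had 4 proximal, 6 middle and 6 distal copies (4.14, 5.87 and 5.92 copies, and 4.07, 5.88 and 6.07). Nucleus 3 of the same gate had 6 proximal, 6 middle and 4 distal copies (5.93, 5.93 and 4.13). These numbers are double those of the most frequent forms with a proximal and with a distal loss, with proximal to middle ratios of 0.706 and 0.692 and a distal to middle ratio of 0.695. The lowest level of all was in 2N+ nucleus 30, with 1.20, 1.20 and 1.43 copies, and its residual of 0.164 copies is also among the 8 above 0.15. In 84 of 94 nuclei every part lay within 0.25 copies of a whole number.

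The break between the proximal and middle part lay in the same bin in most nuclei that had it. Of the 41 nuclei with a proximal step, 35 had a rise of 0.5 copies or more exactly at base 43640396, and 39 had one within 3 bins of it. The 35 nuclei were 2 2N+, 6 4N and 27 2N nuclei, and the median rise was 0.93 copies. The other nuclei within 3 bins had their rise at 42117500 (2N+ nucleus 22), 43134034 (2N nucleus 43) or 44190671 (2N nuclei 10 and 14), and the first of these had 91 break points in its genome. In 2 nuclei the rise came later, at 48645656 in 2N nucleus 24 and at 49113234 in 4N nucleus 2, both with residuals above 0.15 copies. No nucleus without a proximal step had a step within 3 bins of this border. That is largely fixed by the definition of a proximal step, which compares the parts on both sides of it. With 35 nuclei this border was the fifth most shared one of the genome. On chromosome 8, steps occurred in 3 or more nuclei at 7 of 250 bin borders, beside 1.15% of all 4883 borders. At 5 or more nuclei it was 4 of 250, beside 0.614%.

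The distal loss also had a shared start, which was not the border of the parts but lay 5 bins beyond it. Of the 15 nuclei with a distal step and no proximal step, 10 fell at base 93365609, by a median of 1.06 copies. They were 2N+ nuclei 5, 7 and 13, 4N nuclei 3, 7, 8 and 11, and 2N nuclei 6, 18 and 39, so the same bin was used in all gates. In 10 of the 15, every bin of the 2.32 Mb between 91050079 and 93365608 was within 0.05 of the level of the middle part (as a ratio). In 2N+ nucleus 32 the fall was at 93827715 and in 2N nucleus 29 at 92411322, close to the shared bin. In 2N nuclei 7 and 11 the first 5 distal bins were already low, at 0.752 and 0.690 of the middle, and in 4N nucleus 8 they were at 0.853 of it before the fall. In 2N+ nucleus 16 they were at 0.592 of the middle, and the fall came at 87226593. In 8 of the 15 nuclei, the 2.31 Mb after the shared bin were at 0.9 or less of the level of the whole distal part, with a lowest ratio of 0.793 in 2N+ nucleus 13. The remaining nuclei had a single level from the fall onwards or nearly so.

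Most nuclei that kept the distal part at the level of the middle had a low stretch near the start of the distal part. Unlike the distal loss, it mostly included the first 5 distal bins, which lie before 93365609. The median of these bins was within 0.05 of the middle (as a ratio) in 9 of the 66 nuclei with 3 copies of the middle and distal parts. In the nuclei with a distal step and no proximal step it was so in 11 of 15. The window of 10 bins from 91050079 to 95672399 (4.62 Mb) was compared with both flanks, and a dip was counted where it lay below both by 0.25 copies or more. The window and this limit were chosen after the data were seen. Among nuclei with 3 copies of the middle and distal parts, a dip was present in 25 of the 27 2N+ nuclei (92.6%, 75.7 to 99.1), 3 of the 4 4N nuclei (75%, 19.4 to 99.4) and 26 of the 35 2N nuclei (74.3%, 56.7 to 87.5), so the gates overlapped. The window was at a median of 2.55 copies there, below the lower flank by a median of 0.385 copies and hence by less than a whole copy. In the 6 nuclei with 2 copies of the middle and distal parts, the window was at the level of its flanks in all (0 of 6, 0 to 45.9). In the 4 nuclei with 4 or 6 copies of both, it was lower in all, at 2.75 copies in 2N+ nucleus 25, 4.99 and 5.26 copies in 4N nuclei 4 and 5, and 3.04 copies in 2N nucleus 31.

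The dip had less sharply shared edges than the proximal border. Its start was at 91050079 in 22 nuclei, at 89687189 in 9 and at 90587202 in 8, and the level returned at 95672400 in 17 nuclei. Over 55 nuclei with a dip and 3 copies of the middle, it spanned 7 to 77 bins with a median of 14 (6.54 Mb) and was 0.251 to 0.954 copies deep with a median of 0.415. Shallower dips were drawn wider: depth and width had a Pearson r of -0.528 and a Spearman rho of -0.715 over these nuclei. Both come from the same segments of the same nucleus, so the relation is a description only. The deepest dips of the 2N+ gate were in nuclei 24 (0.954 copies below the lower flank), 25 (0.934) and 22 (0.852), which are the 3 2N+ nuclei with a proximal loss. Nuclei 22 and 24 are rich in break points, and the flanks of nucleus 25 were near 4 copies. Next was nucleus 31 (0.817), with all parts at 3 copies and 72 break points. In the 31 2N nuclei with a proximal loss, the window lay below the lower flank by a median of only 0.41 copies. Whether the number of break points has a part in the depth was not tested. In nuclei with a proximal loss and the distal part equal to the middle, dips were seen in 3 of 3 2N+, 5 of 6 4N and 25 of the 31 2N nuclei. In nuclei with all parts at 3 copies they were seen in 23 of 25 2N+, 1 of 1 4N and 2 of the 5 2N nuclei.

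**Figure D4:**
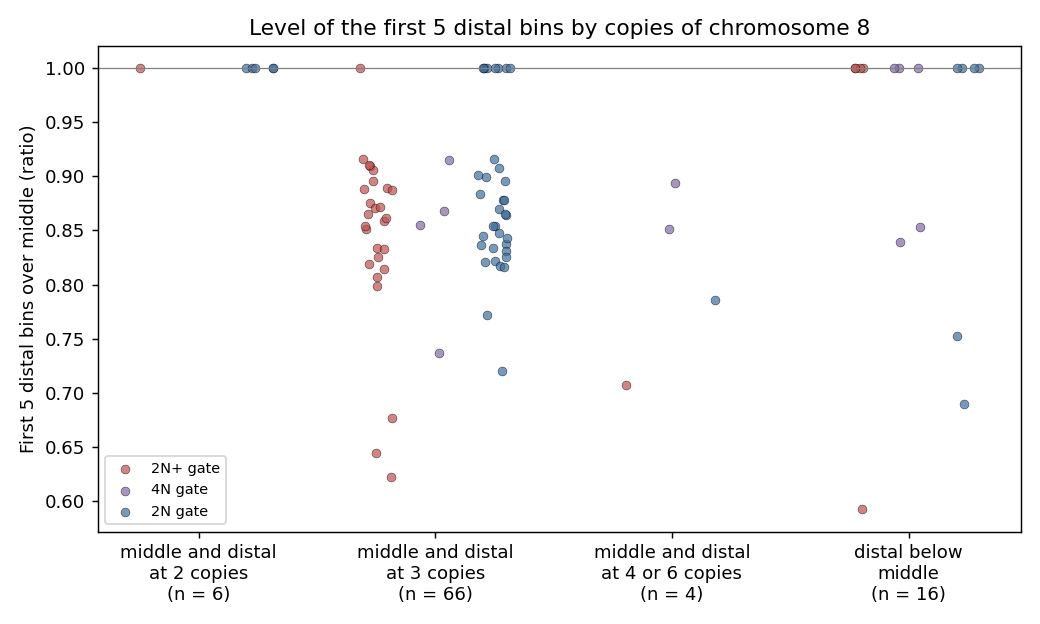
Median level of the first 5 distal bins divided by that of the middle part, 1 point per nucleus, coloured by gate (2N+, 4N and 2N from left to right within a class) and grouped by the rounded copies of the middle and distal parts. The horizontal scatter within a class has no meaning, and 2 nuclei that fit none of the classes (2N+ nucleus 30 and 4N nucleus 1) are left out. All 6 nuclei at 2 copies lie at a ratio of 1, most of the 66 nuclei at 3 copies lie below it, and 11 of the 16 nuclei with a distal loss lie at 1.

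Other steps were rarer. Steps within 3 bins of each other were merged, which gave 14 positions with a step of 0.5 copies or more, 8 of them shared by at least 3 nuclei and 6 in 1 nucleus alone. The merged group around 91050079 reached from 87226593 to 99101960 and held 13 2N+, 9 4N and 18 2N nuclei, since it joins the starts of dips, their ends and the distal losses. A fall near 4163999, behind a raised chromosome start, was found in 5 nuclei (1 2N+, 2 4N and 2 2N nuclei), and every one of them had a proximal loss. Among all nuclei a proximal loss was present in 3 of the 35 2N+, 7 of the 12 4N and 31 of the 47 2N nuclei. With 5 nuclei no link between the 2 can be read from this. Low segments near 15918442 and 29147199 were shared by 4N nuclei 7, 9 and 10. In nuclei 7 and 9 the second ran from 29147199 to 31734999 in both, at 1.73 and 1.84 copies between flanks near 3. In nucleus 10 a shorter segment inside it, from 29675744 to 31222052, was at 1.36 copies between flanks near 2. These 3 nuclei had 70, 112 and 83 break points in the genome, against a median of 27 in the 4N gate, and the part of that in the shared segments was not tested. The fourth nucleus with steps near 15918442 was 2N+ nucleus 31, which had 72 break points.

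The remaining positions shared by 3 or more nuclei were at 48645656 (1 2N+, 2 4N and 1 2N nuclei), at 105188460 (1 2N+, 4 4N and 0 2N nuclei) and at 117046423 (3 2N+, 2 4N and 0 2N nuclei). At 105188460 all 5 nuclei had a rise, and at the other positions some nuclei rose and others fell. No step of 0.5 copies or more was found on chromosome 8 in 28 nuclei, and in 5 nuclei the whole chromosome had a single value.

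The state of chromosome 8 went with the copies of other chromosomes in the same nucleus. These chromosomes were picked after their values were seen, and the following counts leave out the 4 nuclei with multipliers above 3. Every nucleus with a proximal loss had 3 copies of chromosome 3, 2 of chromosome 15 and 1 of chromosome X: 3 of the 3 2N+ nuclei, 4 of the 4 4N nuclei and 31 of the 31 2N nuclei. That set was otherwise found in 3 nuclei, all in the 2N gate, of which 1 had all parts of chromosome 8 at 3 copies and 2 had them at 2. The 2N+ nuclei with a proximal loss therefore had the same copies of these chromosomes as most 2N nuclei. In multiplier-free terms, chromosome 15 was 1.02 to 1.12 times chromosome 4 in the 2N+ nuclei with a proximal loss, against 1.41 to 1.5 in the 2N+ nuclei with a distal loss. For chromosomes 3 and X the same ranges overlapped. They were 1.57 to 1.62 against 1.53 to 2.03 for chromosome 3, and 0.564 to 0.609 against 0.528 to 1.02 for chromosome X.

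Nuclei with all parts of chromosome 8 at 3 copies differed from these. In the 2N+ gate, 24 of 25 had 4 or more copies of chromosome 3 (96%, 79.6 to 99.9), all 25 had 3 or more of chromosome 15 (100%, 86.3 to 100) and 21 had 2 or more of chromosome X (84%, 63.9 to 95.5). In the 2N gate, 3 of 5 had 4 or more copies of chromosome 3, 4 of 5 had 3 or more of chromosome 15 and 2 of 5 had 2 or more of chromosome X. Chromosome 15 at 3 or more copies was found in 0 of the 31 2N nuclei with a proximal loss (0%, 0 to 11.2) and in 12 of the 16 2N nuclei without (75%, 47.6 to 92.7).

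The distal loss went with chromosomes 2 and 5. Chromosome 5 had 3 or more copies in 5 of the 5 2N+ nuclei with a distal loss, in 2 of the 3 4N nuclei and in 6 of the 6 2N nuclei (100%, 54.1 to 100). Without a distal loss it was 8 of the 30 2N+ nuclei (26.7%, 12.3 to 45.9), 0 of the 5 4N nuclei and 0 of the 41 2N nuclei (0%, 0 to 8.60). Chromosome 2 had 4 or more copies in 4 of 5 2N+ and 6 of the 6 2N nuclei with a distal loss, against 7 of 30 2N+ and 0 of the 41 2N nuclei without. In the 4N nuclei it was 0 of 3 and 0 of 5. In every gate, all nuclei with a distal loss had 3 or more copies of chromosome 15. Without a distal loss it was 26 of the 30 2N+ nuclei, 1 of the 5 4N nuclei and 6 of the 41 2N nuclei. Among those 2N nuclei it was 0 of 31 with a proximal loss, 4 of 5 with all parts at 3 copies and 2 of 5 with all at 2. A set with chromosome 19 at 4, 18 at 2 and 15 at 3 copies was found in 8 nuclei (2 2N+, 1 4N and 5 2N nuclei), all 8 with a distal loss. It covered 2 of 5 2N+, 1 of 3 4N and 5 of the 6 2N nuclei with a distal loss. None of the 8 had a proximal loss, which follows from the condition on chromosome 15. Chromosome 19 at 4 copies alone, counted over all 94 nuclei, was found in 10 nuclei. Of these, 9 had a distal loss and 2 a proximal loss (4N nucleus 2 had both). In the 2N gate it was found in 6 nuclei, 5 with a distal loss and 1 with a proximal loss.

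The bulk libraries were set beside the mean of the nuclei of their gate, with no test, since each is 1 library. In the 2N+ gate the proximal, middle and distal ratios were 1.12, 1.19 and 1.14 in bulk, against 1.12 ± 0.152, 1.16 ± 0.173 and 1.12 ± 0.194 in the nuclei (SD, n = 35). In the 2N gate they were 0.954, 1.26 and 1.25 in bulk, against 0.954 ± 0.132, 1.22 ± 0.144 and 1.18 ± 0.196 in the nuclei (SD, n = 47). The proximal to middle ratio was 0.946 in the 2N+ bulk and 0.756 in the 2N bulk. The 2N value lay between a ratio of 1 and the median of 0.688 of the 2N nuclei with a proximal step. The 2N+ bulk rose inside the middle part, at 61442839, and not at the proximal border, so its ratio does not measure a proximal step. The 2N bulk had a break exactly at 43640396, and the 2N+ bulk had a single segment across that position, up to 61442838. Both had a lower segment over the dip window, from 90139046 to 105672648 at a ratio of 1.00 in the 2N+ bulk and from 78949562 to 109583937 at 1.14 in the 2N bulk.

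Genes could not be placed in these bins, because the annotation at hand is of another build, GRCm38.p6. Its order of 1043 protein-coding genes of chromosome 8, from the centromere on, held all 32 genes of the lists made for growth signalling, tumour suppression and transcription factors. Insr, the insulin receptor, is gene 1 in that order, Irs2, an adaptor of insulin signalling, is 48 and Fgfr1, a fibroblast growth factor receptor, is 207. Dlc1, known as a tumour suppressor, is 267. Junb, a component of the AP-1 factor, is 623 and Cyld, a deubiquitinase, is 662. Cdh1, the epithelial adhesion protein E-cadherin, is 820, Irf8, a transcription factor of myeloid cells, is 943 and Fanca, of the Fanconi anaemia DNA repair pathway, is 990. No copy number is given for them.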

How the data were processed

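The deposited table holds 1 value per bin for 96 libraries. Per the submitters' processing notes, Bowtie 1.0 and the build mm9 were used, while for binning, base composition, duplicates and segmentation the method is not given in the sources used here. Linear ratios, not counts, are what the authors deposited, with a mean near 1 per library and long runs of equal values; this is a unit recorded as other. Depth is therefore unknown, changes shorter than a segment cannot be seen, and a ratio cannot tell a doubled genome from an undoubled one unless odd copies occur.

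Columns were tied to samples by title and gates taken from it, and 0 value columns had no sample. Lines were split into 99 fields. For each nucleus, a multiplier from 1.5 to 6 in steps of 0.05 was chosen for the smallest mean squared distance of the autosomes to whole numbers. The square root of that distance is the residual. Copies of a part are the median over its bins times the multiplier. A step is a change of 0.5 copies or more between neighbouring bins, and steps within 3 bins were merged. Named were all positions and combinations in 3 or more nuclei, and nuclei of rarer combinations. Members, lists and borders were chosen with earlier results of these data known. Scripts were tested on simulated data. Calculations used Python 3.11.15 with scipy 1.17.1, pandas 2.3.3 and numpy 2.4.6, and figures matplotlib 3.10.9. No mm9 annotation was used, so genes are given by order only, and not every gene of the lists is named.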

Additional observations from a re-analysis of the deposited data

How the results depend on the processing

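Of 236 values recomputed under alternatives, 222 stayed within the error of the first value or within 1.5 times a count and 14 moved. Of these values 0 changed sign, which was possible only for differences, since counts, shares, copies and ratios cannot be negative. The 222 include large shifts of the 4N gate with the multiplier limited to 2 to 3. Its proximal median went from 3.03 to 2.37 copies and its proximal share at 2 copies or fewer from 33.3% to 58.3%. With the multiplier limited to 2 to 3, the combination of 2, 3 and 3 copies was found in 5 4N nuclei, and 0 bins of chromosome 8 and 0% of all bins passed for 4N minus 2N. The median proximal to middle ratio over all 12 4N nuclei, with and without a proximal step, was 0.815. Without nuclei of residual above 0.15 copies it was 0.977. Without nuclei of more than 60 break points, the combination of 2, 3 and 3 copies was found in 0 2N+ nuclei and 3 copies throughout in 0 4N nuclei. In that setting 4 positions had steps in 3 or more nuclei. The dip share of 4N nuclei was then 100%, but only nuclei 6 and 12 were left in it. With a step of 0.7 copies, 4 positions were shared by 3 or more nuclei and the merged group holding the start of the distal loss, which had 40 nuclei at first, had 23. It had 75 with a step of 0.3 copies, and matched by exact bin, that start was found in 10 nuclei. Among nuclei with all parts within 0.25 copies of whole numbers, the first combination was left in 1 2N+ nucleus. With a dip of 0.35 copies, the dip share of 2N+ nuclei was 66.7%. The cause of each was not tested beyond the smaller number of nuclei or steps that the setting itself leaves. The dip alternatives, the limited multiplier for bins and the removal of high multipliers were chosen after the data were seen. No paired analysis was possible because replicate numbers merely tell nuclei apart, and there was no fit to block. Depth is unknown, and the number of nuclei limits all shares, most of all in the 4N gate with 12.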

Other observations

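The first 2 bins of chromosome 8 (bases 1 to 4163998) lay above the proximal part by 0.25 copies or more in 3 of the 35 2N+ nuclei, 2 of the 12 4N nuclei and 7 of the 47 2N nuclei. The largest excess was 0.645 copies in 2N+ nuclei, 1.20 copies in 4N nuclei and 0.695 copies in 2N nuclei, and the median excess was 0 in every gate. Values are given here without explanation.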
